A study of Homo sapiens with 3 samples.

Results

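RIMS1 and RIMS2 encode the long RIM proteins, scaffolds of the presynaptic active zone, and the circular RNAs (circRNAs) spliced from these 2 genes were followed in 3 human urothelial cell lines. The circRNAs were taken as every row whose host gene column names RIMS1 or RIMS2. That gave 11 circRNAs of 10562 listed, 8 from RIMS1 and 3 from RIMS2, and these are 2 of 4231 host genes. The lines were T24 and J82, which the labels call bladder cancer lines, and SV-HUC-1, an immortalized line from the urothelium. Each line gave 1 library, with no treatment of the cells named in the labels, so differences between lines could not be checked against replicates, and the intervals below cover counting error only.

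A circRNA forms when the splice donor at the end of an exon is joined back to an acceptor upstream of it, and the read across that junction identifies the circle. Having no free ends, circRNAs resist the exonuclease RNase R, with which the libraries were treated before sequencing. RIM proteins are best known from neurons and endocrine cells, where they bind Rab3 on secretory vesicles, activate the vesicle priming factor Munc13 and hold calcium channels near the release site. The study's title names circRIMS1 together with the microRNA miR-433-3p, and hsa_circ_0132246 is taken here for circRIMS1. The labels tie no circBase ID to that name, so the match rests on general knowledge of the study.

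The mature sequence of that microRNA from RefSeq (GRCh38.p14, chr14:100881949-100881970, plus strand) is shown because the title pairs it with circRIMS1, with its seed, bases 2 to 8, in capitals. No circle sequence was used here, so sites for the seed were not searched.
hsa-miR-433-3p: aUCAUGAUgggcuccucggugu
Of 2370 mature human microRNAs in the RefSeq table, 1 had this seed, miR-433-3p itself.

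All 8 RIMS1 circRNAs were read in T24 and are followed together below, so 1 promoter of the gene is shown. RefSeq lists 3 promoter windows for RIMS1, each from 250 bases before to 50 bases after an annotated start. The window with the motif GGGCGG, the GC box bound by SP1 family factors, is the most upstream of them (GRCh38.p14, chr6:71886300-71886599, plus strand), and capitals mark its matches.
RIMS1 promoter: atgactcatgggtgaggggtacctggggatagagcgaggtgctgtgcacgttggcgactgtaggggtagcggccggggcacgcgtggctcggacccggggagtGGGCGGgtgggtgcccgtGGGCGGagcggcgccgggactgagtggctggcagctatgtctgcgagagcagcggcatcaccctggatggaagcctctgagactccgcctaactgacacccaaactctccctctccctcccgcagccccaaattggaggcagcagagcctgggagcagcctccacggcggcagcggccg
The motif was searched on both strands and was found 2 times here and in 45.0% of the 35116 promoter windows of the table. This window held 23 CpG dinucleotides, against a median of 14. The other RIMS1 windows, not shown, had 0 matches and 3 CpG dinucleotides each, so the window shown does not stand for all of them. Which start T24 uses was not measured. The window shown is placed in GRCh38.p14 and the circles below in hg19, so these positions cannot be compared directly. Whether each circle starts downstream of this window was not determined.

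Reads assigned to all listed circRNAs numbered 108574 for T24, 126041 for J82 and 128055 for SV-HUC-1. One read was worth 0.0234, 0.0211 and 0.0201 CPM (reads scaled to a TMM-adjusted library total) in those 3 lines. A count of 0 allows up to 3 reads, or 0.0702 CPM for T24, 0.0634 CPM for J82 and 0.0602 CPM for SV-HUC-1. Among 12 epithelial and urothelial marker genes with a listed circRNA, 9 had 0 circular reads in T24, EPCAM, CDH1 and GRHL2 included. In J82, 2 of them were at 0, and in SV-HUC-1 none was. Their levels summed to 0.679 CPM for T24, 10.3 CPM for J82 and 21.8 CPM for SV-HUC-1. Of 19 neuronal markers 2 were named in the host gene column, NRXN3 and ANKS1B. Together they had 14 T24, 58 J82 and 4 SV-HUC-1 reads, with ANKS1B at 0 in T24 and SV-HUC-1. Not counted there are circles without a host gene that circBank names for KCNQ5, another of these markers. Those had 0 reads in T24 and in J82, and 29 and 25 in SV-HUC-1, more than the 4 counted for that line. Of 6 blood and endothelial markers, 1 was listed and had 44 T24, 11 J82 and 33 SV-HUC-1 reads. The part of these markers in the RIMS1 and RIMS2 results was not tested.

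RIMS1 circRNAs were a T24 signal. Summed over the 8 circRNAs, the T24 library held 432 reads of the gene (10.1 CPM, 95% counting interval 9.18 to 11.1), the J82 library 5 (0.106 CPM, 0.0343 to 0.247) and the SV-HUC-1 library 0. T24 was at least 168-fold above SV-HUC-1, taking 3 reads as the floor there, and 95.6-fold (40.7 to 296) above J82. The 5 reads of J82 were at least 1.76-fold above the same floor, before their own counting error. RIMS1 ranked 17 among the 3729 host genes read in T24, next to FKBP8 with 457 reads and ARHGEF28 with 430. It supplied 0.398% of all circRNA reads of T24 and 0.00397% of those of J82. In bulk RNA, fewer cells that carry a circRNA and less of it per cell cannot be told apart.

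Both neighbours in that T24 order had reads in all 3 lines, unlike RIMS1. FKBP8 had 288 J82 and 493 SV-HUC-1 reads, and ARHGEF28 had 276 J82 and 242 SV-HUC-1 reads. Of 2054 host genes with at least 10 reads in T24, 24 (1.17%) had 0 in SV-HUC-1, and RIMS1 had the most T24 reads of these. The next were NAV3, a microtubule-binding neuron navigator, with 93 reads in T24 and 25 in J82, and LOC284757 with 32 in T24 and 0 in J82.

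The leading circRNA was hsa_circ_0132246 (hg19, chromosome 6, 73005639 to 73043538, plus strand), whose 378 T24 reads gave 8.85 CPM and whose 5 J82 reads gave 0.106 CPM. It had no read from SV-HUC-1. It ranked 10 among all circRNAs of T24. The other 7 circRNAs of RIMS1 had 5 to 11 reads in T24, 54 together, and 0 in both J82 and SV-HUC-1. At these depths each of the 7 was at least 1.94- to 4.28-fold above the SV-HUC-1 floor, which leaves out the counting error of their T24 reads. Since a circRNA entered the table with 5 reads in at least 1 library, any rarer RIMS1 circle was not analysed here. Among the 5773 circRNAs with 5 or more reads in T24, 237 (4.11%) had 0 reads in both other lines.

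**Figure D1:**
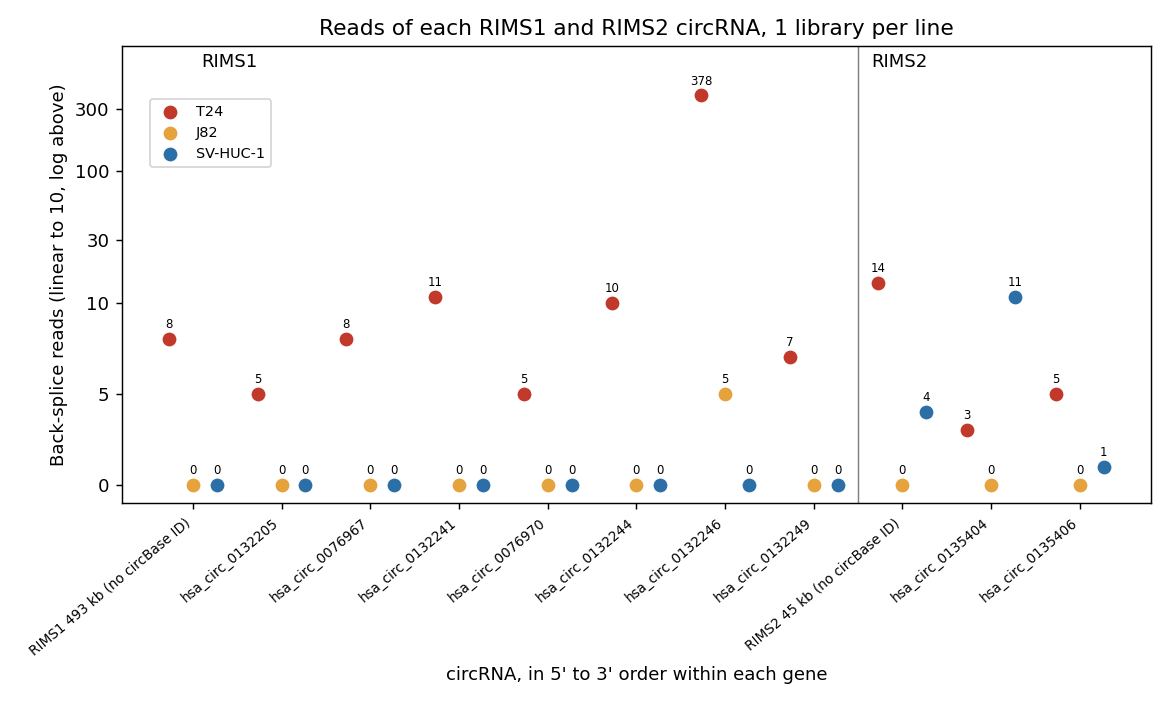
Back-splice reads (vertical axis, linear to 10 and logarithmic above) of the 8 RIMS1 and 3 RIMS2 circRNAs in T24, J82 and SV-HUC-1, with each point 1 library and its count printed above it. The point at 378 reads is hsa_circ_0132246 in T24, and all J82 points except its 5 reads lie at 0.

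The RIMS1 circles fell into a dense group at the downstream end of the listed region and 3 scattered ones upstream. The downstream group held 5 circRNAs within 49789 bases (72993749 to 73043538) and 411 of the 432 T24 reads, or 95.1% (92.7 to 97.0). Spans here are genomic distances that include introns, and exon content was not determined.

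Inside that group, circles shared splice ends. The donor side at 73043538 closed 2 circles, hsa_circ_0132246 with 378 reads and hsa_circ_0132244 with 10 in T24. Those 2 differ by 4003 bases at their start, and 97.4% of the reads closed at that donor used the start at 73005639. The donor side at 73023375 closed 3 circles with 23 T24 reads in all, hsa_circ_0132241 with 11, hsa_circ_0132249 with 7 and hsa_circ_0076970 with 5. No circle led there to the same degree, since the most abundant had 47.8% of those reads. The start at 73001636 was joined to both donors, with 10 reads to the farther one in hsa_circ_0132244 and 5 reads to the nearer one in hsa_circ_0076970. Counted over the gene, 8 circRNAs used 7 starts and 5 ends.

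The 3 upstream circles had 21 T24 reads in all. The circle hsa_circ_0076967 (72960032 to 72961071) spanned 1039 bases and had 8 reads. The circle hsa_circ_0132205 (72806651 to 72816283) spanned 9632 bases and had 5. The last one carried no circBase ID and ran from 72313808 to 72806865, a span of 493057 bases, with 8 reads in T24. Of all 10562 circRNAs listed, 2 spanned that length or more, this one included, and the median span was 6050.5 bases. Its downstream end lay 214 bases inside hsa_circ_0132205, so these circles overlapped by that stretch. The leading circle was long as well, at 37899 bases, a length that 7.06% of all listed circRNAs reached.

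**Figure D2:**
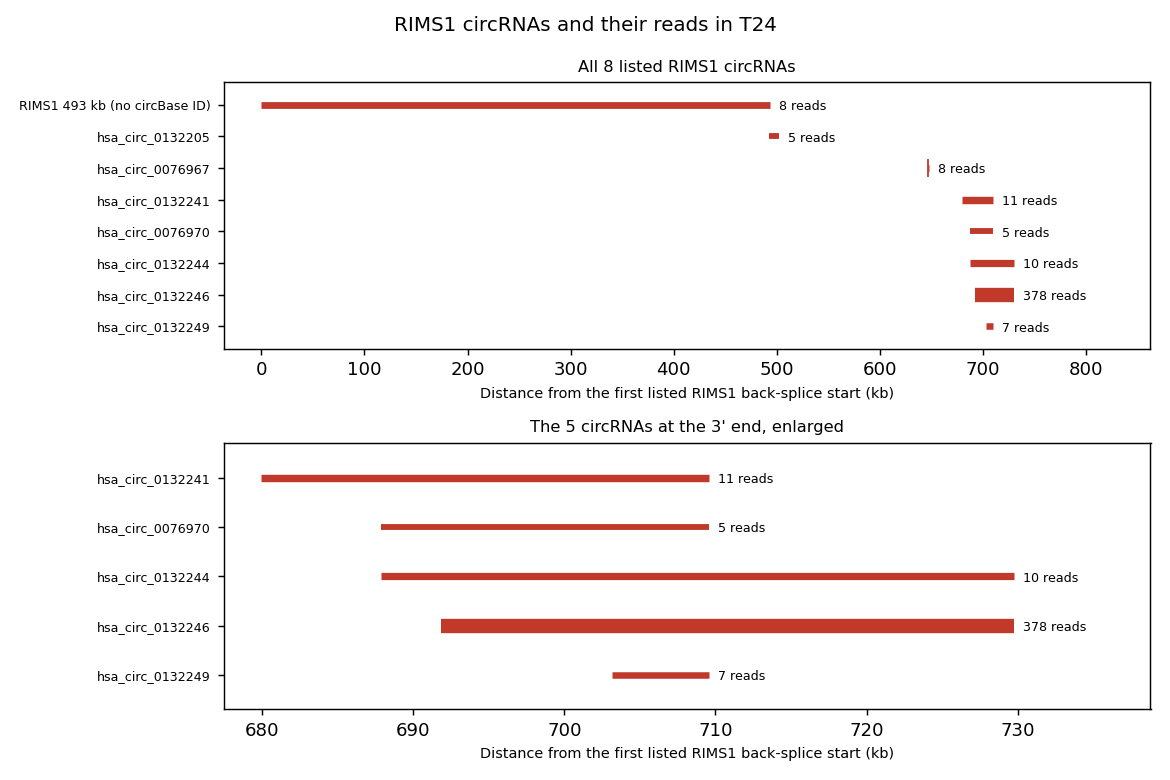
Position of the 8 RIMS1 circRNAs as distance in kb from the first listed back-splice start (upper panel) and of the 5 at the downstream end (lower panel). Each bar runs from start to end of 1 circRNA, is thicker with more T24 reads and is marked with that number, and the 378-read bar shares its right end with the 10-read bar.

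The leading circle took most of the RIMS1 total where the total could be read. In T24 it held 87.5% of the RIMS1 reads (84.01 to 90.5, exact Clopper-Pearson interval), 34.4 times as many reads as the next circle. In J82 all 5 reads were hsa_circ_0132246, a share of 100% with an interval of 47.8 to 100%, so the T24 share lies inside the J82 interval. In SV-HUC-1 there was no RIMS1 read and hence no share. Among 165 host genes with at least 8 listed circRNAs, the leading circle held a median of 36.7% of the reads over the 3 libraries and a lowest value of 10.7%. RIMS1 had 87.6%, the highest of the 165, followed by ADARB1 with 85.0% and GAPVD1 with 84.8%. In T24 alone RIMS1 ranked 3 of 163, behind PTPRM and GAPVD1. Of the 437 RIMS1 reads 432 are from T24, so its share over the 3 libraries is in effect the T24 share.

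**Figure D3:**
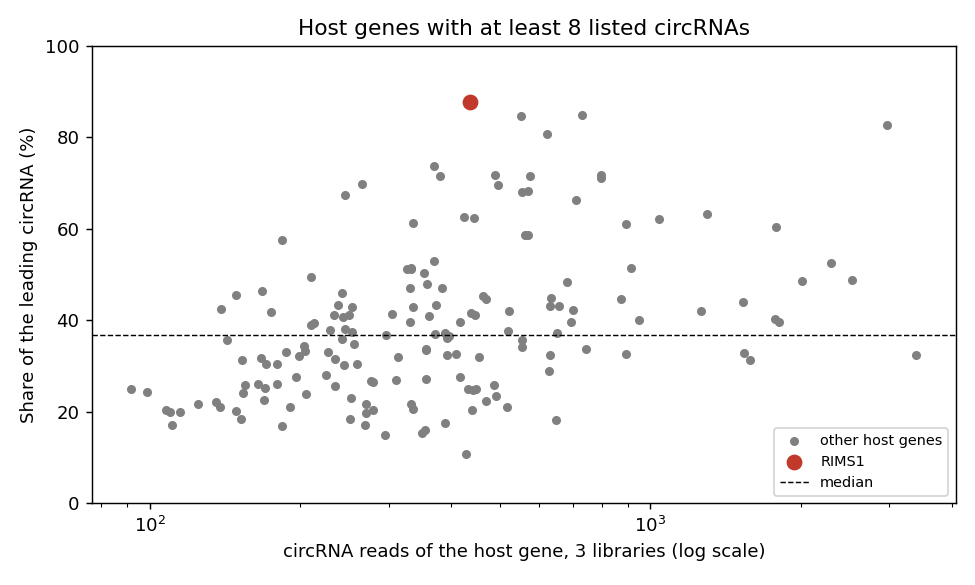
Share of the leading circRNA in its host gene's reads (vertical axis, %) against the host gene's reads over the 3 libraries (logarithmic axis) for 165 host genes with at least 8 listed circRNAs. RIMS1, at 87.6%, lies above the other points and far above the dashed median of 36.7%.

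RIMS2, the paralogue of RIMS1, was read in T24 and SV-HUC-1 and not in J82. Its 3 circRNAs together gave 22 reads from T24 (0.515 CPM, 0.323 to 0.780), 0 from J82 and 16 from SV-HUC-1 (0.321 CPM, 0.184 to 0.521). The T24 level was 1.60 times that of SV-HUC-1 with an interval of 0.804 to 3.27, which takes in 1. J82 was at least 5.06-fold below SV-HUC-1, and T24 at least 8.12-fold above J82. Both bounds take 3 reads as the floor of J82 and leave out the counting error of the 16 and 22 reads. T24 thus gave the most reads for both genes, for RIMS2 without a difference from SV-HUC-1 beyond counting error. That depends on which rows are counted, since with hsa_circ_0005114, a row without a host gene that circBank names for RIMS2, the ratio was 2.26 (1.23 to 4.33). The 5 J82 reads of RIMS1 are too few to establish a difference from the 0 of SV-HUC-1.

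T24 and SV-HUC-1 differed in which RIMS2 circle led. The circle without a circBase ID (hg19, chromosome 8, 104664432 to 104709524, plus strand) spanned 45092 bases and had 14 T24, 0 J82 and 4 SV-HUC-1 reads. T24 stood 4.08-fold (1.28 to 17.03) above SV-HUC-1. A much smaller circle, hsa_circ_0135404, lies inside it and closes at the same donor side (104709313 to 104709524, a span of 211 bases). It had 3 T24, 0 J82 and 11 SV-HUC-1 reads, so T24 was at 0.318 of SV-HUC-1 (0.0570 to 1.204). The third, hsa_circ_0135406 (104778454 to 104778765, 311 bases), had 5 T24, 0 J82 and 1 SV-HUC-1 reads, with T24 at 5.83 times SV-HUC-1 (0.653 to 276).

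As shares of the RIMS2 total, the long circle held 63.6% (40.7 to 82.8) in T24 and 25% (7.27 to 52.4) in SV-HUC-1. With hsa_circ_0005114 counted in the total, these shares were 42.4% (25.5 to 60.8) and 23.5% (6.81 to 49.9). The 211-base circle held 13.6% (2.91 to 34.9) in T24 and 68.8% (41.3 to 89.0) in SV-HUC-1, and these 2 intervals do not overlap. Of the reads closed at the shared donor, the odds of the long over the short circle in T24 were 11.6 times those in SV-HUC-1 (exact conditional interval 1.89 to 100.1). This contrast was chosen after its values were seen, and it rests on 17 reads in T24 and 15 in SV-HUC-1. How often circles of the same host gene went in opposing directions between these lines is given below.

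**Figure D4:**
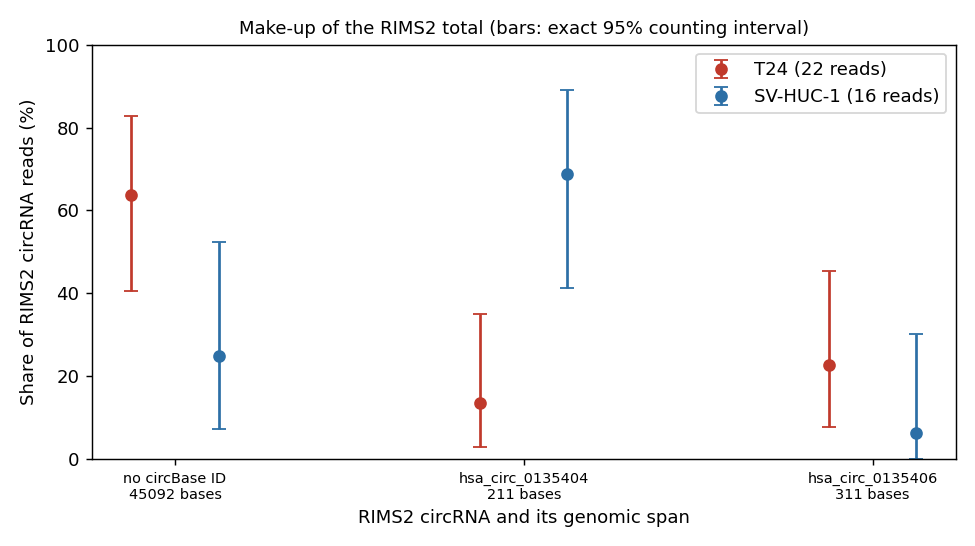
Share of each RIMS2 circRNA in the gene's circRNA reads (vertical axis, %) in T24 (22 reads) and SV-HUC-1 (16 reads), with exact 95% counting intervals as bars. The long circle leads in T24 at 63.6% and the 211-base circle in SV-HUC-1 at 68.8%. The row hsa_circ_0005114 is not counted here.

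To set the members against the table, a pair of lines was compared over circRNAs that reached 10 reads in either library, and a circRNA was counted from a 2-fold difference of log2(CPM + 0.0234), a pseudocount of 1 read in T24. In T24 against SV-HUC-1, 3 of the 8 RIMS1 circRNAs could be compared, and all 3 were higher. Over all 3847 circRNAs compared, 21.4% were higher and 27.3% lower. Of RIMS2, 2 of 3 could be compared, the long circle higher and hsa_circ_0135404 lower. Circles in opposing directions were found in 69 (8.12%) of the 850 host genes with 2 or more circRNAs compared. Each of the RIMS1 and RIMS2 members compared reached 10 reads only in the line where it was higher, here and in the other comparisons. The filter thus fixed their directions, and nothing is read from the counts.

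In J82 against SV-HUC-1, the RIMS2 circle hsa_circ_0135404 was the 1 member compared, entering through SV-HUC-1, and it was lower, beside 23.3% of 3996 circRNAs. In T24 against J82, 3 circles of RIMS1 and 1 of RIMS2 were compared, all 4 entering through T24, and all were higher, beside 19.5% of 3679. A two-sided exact binomial test on the recovered reads, with Benjamini-Hochberg adjustment, compares 2 libraries and not the lines. It called 37.4% of the circRNAs compared between T24 and SV-HUC-1, 34.7% between J82 and SV-HUC-1 and 33.9% between T24 and J82.

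Release genes, with RIMS1 and RIMS2 counted among them, lay on both sides of 2-fold in each comparison of their circRNAs. Of 83 symbols for the active zone and vesicle release machinery, some of them older names, 21 had a listed circRNA. In T24 against SV-HUC-1, 13 could be compared at 10 reads, and on the log2(CPM + 0.0234) scale 4 were at least 2-fold higher and 2 lower. CASK and RAB3GAP2, at CPM ratios of 2.07 and 2.01 with intervals that take in 1, fell just short of 2-fold on that scale. Of the genes past 2-fold, only UNC13B and RAB3D reached 10 reads in both libraries, so the filter fixed the direction of the others. Over all 2616 host genes compared, 18.7% were higher and 22.1% lower. The list's median log2 difference was 0.64, the value of RIMS2, against -0.04 over all host genes, and 0.68 with genes at 0 reads set at the floor and no pseudocount. Without the filter on reads the median was -0.30, so its direction depends on that filter. With the filter and without RIMS1 and RIMS2, 3 of 11 genes were higher and 2 lower, with a median of 0.52.

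Among partners of RIM proteins, UNC13B, a Munc13 priming factor, had 50 T24, 26 J82 and 14 SV-HUC-1 reads. T24 stood 4.17-fold (2.27 to 8.16) above SV-HUC-1 and 2.13-fold (1.30 to 3.56) above J82. RAB3D, a vesicle GTPase of the Rab3 family, had 10 T24, 5 J82 and 35 SV-HUC-1 reads, and was 3.00-fold (1.45 to 6.80) lower in T24 and 6.64-fold (2.59 to 21.7) lower in J82. ERC1, an active zone scaffold that binds RIM, had 193 T24, 119 J82 and 157 SV-HUC-1 reads and stayed within 2-fold in each comparison. The liprin gene PPFIA3 had 0 T24, 2 J82 and 12 SV-HUC-1 reads, at least 3.43-fold lower in T24 and 5.70-fold (1.27 to 52.4) lower in J82. Its relative PPFIA1, with 155 T24, 132 J82 and 264 SV-HUC-1 reads, stayed within 2-fold.

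Of the membrane fusion and adhesion genes, STX1A, a syntaxin of the release SNARE complex, had 14 T24, 2 J82 and 2 SV-HUC-1 reads. T24 was at 8.16 times SV-HUC-1 (1.88 to 74.01). NRXN3, a presynaptic adhesion protein, was highest in J82 with 47 reads, against 14 in T24 and 4 in SV-HUC-1. In J82 against SV-HUC-1, 12 genes were compared, with NRXN3 and STXBP5 higher and RIMS2, RAB3D, PPFIA3 and ARHGEF7 lower, where 18.4% of 2647 host genes were higher and 19.5% lower. STXBP5, or tomosyn, had 20 J82 and 9 SV-HUC-1 reads (2.34-fold, 1.02 to 5.84), and ARHGEF7, an exchange factor that binds GIT proteins, had 31 J82 and 74 SV-HUC-1 reads (2.27-fold lower, 1.47 to 3.57). Of the genes past 2-fold there, only ARHGEF7 reached 10 reads in both libraries, so the filter fixed the direction of the others. The list's median for J82 against SV-HUC-1 was -0.57, against -0.03 over all host genes. Without RIMS1 and RIMS2, 2 of 11 genes were higher and 3 lower, with a median of -0.32. In T24 against J82, RIMS1, RIMS2, UNC13B and STX1A were higher and NRXN3 and STXBP5 lower of 13, where 16.6% of 2513 host genes were higher and 20.7% lower. RAB3D, at a CPM ratio of 2.21 (0.690 to 8.26), fell just short of 2-fold on the log2(CPM + 0.0234) scale there. Of the genes past 2-fold between T24 and J82, only UNC13B and NRXN3 reached 10 reads in both libraries. The filter fixed the direction of the others.

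**Figure D5:**
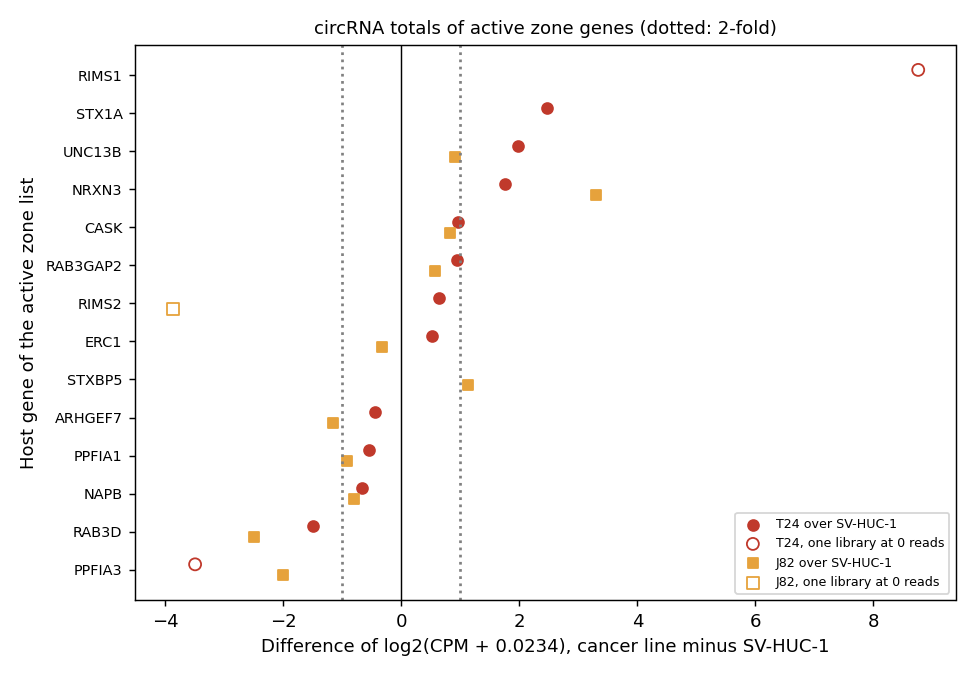
Difference of log2(CPM + 0.0234) of host gene totals between T24 (circles) or J82 (squares) and SV-HUC-1 for the active zone genes with at least 10 reads in 1 of the 2 libraries, with open symbols where 1 library had 0 reads. RIMS1 in T24 lies far to the right with 0 reads in SV-HUC-1, and RIMS2 lies to the left in J82, which had 0 reads of it.

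The host genes most like RIMS1 were found by how each gene's CPM was divided over the 3 lines, among 2154 host genes with at least 30 reads. RIMS1 had 98.97% of its CPM in T24 and 1.03% in J82. The nearest were LOC284757 at a distance of 1.46 percentage points, ZFPM2 at 3.56, WSCD1 at 4.59, DOCK4 at 10.9 and SPRED1 at 13.5. WSCD1 was read at a comparable depth, with 227 T24, 0 J82 and 10 SV-HUC-1 reads. RIMS2, with 61.6% of its CPM in T24 and 38.4% in SV-HUC-1, lay nearest to MGLL, DCAF4, RAD51B, CHEK2 and NF2, at 9.18 to 10.5 points. These distances describe 3 libraries each.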

How the data were processed

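CircRNAs were measured in T24, J82 and SV-HUC-1, with 1 library per line, from total RNA treated with RNase R after ribosomal RNA removal, per the labels' protocols. The authors deposited 1 table of CPM per circRNA, normalized with TMM factors per its name. The submitters' processing notes name the hg19 build, STAR, edgeR, RSEM 1.2.15 and Bowtie2 2.1.0, with no order. The junction caller, and whether starts count from 0 or 1, are not given in the sources used here. The 3 value columns were matched to lines by name, that of SV-HUC-1 with small differences in its letters.

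With a tolerance of 0.01 reads, 100% of values were whole multiples of a column's smallest value, so reads were recovered. The lowest maximum of a listed circRNA was 5 reads. Ratios of CPM have exact 95% Clopper-Pearson counting intervals on these reads, and a library at 0 was set at a floor of 3 reads. Reads carry no molecular identifiers, so intervals and floors cover counting error only. No test across lines was possible with 1 library each. Python 3.11.15 and scipy 1.17.1 were used, and the calls were tested on simulated data. The binomial test was added after the data were seen.

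The members and lists were chosen with earlier results of these data known. Every RIMS1 and RIMS2 circRNA is described. Other host genes are named as list members past 2-fold (up to 6 per comparison), as the 5 nearest in likeness, or as neighbours in T24 rank. ERC1, PPFIA1, CASK, RAB3GAP2, NAV3, the next host genes by leading share and the marker genes were named after their values were seen.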

Additional observations from a re-analysis of the deposited data

Results flagged for a closer look

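Rows of the table without a host gene were counted neither as RIMS1 or RIMS2 circRNAs nor in the host gene totals above. Near those circRNAs lie 3 such rows, with reads in T24 above the level of SV-HUC-1. On chromosome 6, a circle from 72313808 to 72490124 (plus strand, 176316 bases) had 6 T24 reads and none from J82 or SV-HUC-1. It starts at the same position as the 493057-base circle that the table assigns to RIMS1. A second circle, from 72401972 to the same end at 72490124 (88152 bases), had 8 T24 reads and none from J82 or SV-HUC-1. Set against 3 reads for SV-HUC-1, these were at least 2.33- and 3.11-fold higher in T24, without the counting error of the T24 reads. All 3 circles that use the start at 72313808 or the end at 72490124 were thus read in T24 alone.

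On chromosome 8, hsa_circ_0005114 (105080739 to 105161076, plus strand, 80337 bases), which circBank names for RIMS2, had 11 T24, 0 J82 and 1 SV-HUC-1 reads. Its ratio of T24 to SV-HUC-1 was 12.8 (1.86 to 552). With the chromosome 6 rows added to RIMS1, its T24 total became at least 173-fold above SV-HUC-1. Neither of those rows has a host gene or a circBank name, so whether they lie within RIMS1 was not determined. With hsa_circ_0005114 added to RIMS2, the ratio became 2.26 (1.23 to 4.33), whose interval no longer takes in 1.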

How the results depend on the processing

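Of 115 recomputed values, 86 stayed within counting error of the reported ratio or share, or close to the reported count or median. Some of these could not move. All J82 reads of RIMS1 are of hsa_circ_0132246, which fixes its J82 share and the J82 ratio with that circle alone. Scaling to the listed circRNA reads of a library, or with median-of-ratios size factors, moved none of the RIMS1 or RIMS2 ratios beyond counting error. With the leading circle alone, T24 stood at least 147-fold above SV-HUC-1 for RIMS1. RIMS2 was then 4.08-fold higher in T24 and at least 1.27-fold lower in J82. That last bound sets 4 SV-HUC-1 reads against 0 and leaves out their counting error, so it establishes no difference. Without the leading circle, the RIMS1 bounds for T24 were 21.0-fold above SV-HUC-1 and 19.9-fold above J82. RIMS2 was then at 0.778 of SV-HUC-1 in T24, with an interval that takes in 1 (0.276 to 2.07). T24 was at least 2.95-fold above J82, before the counting error of its few T24 reads. Over members with 10 reads, hsa_circ_0132246 held 94.7% of the RIMS1 reads of T24. Without the read filter, 11, 3 and 11 members passed 2-fold in T24 against SV-HUC-1, J82 against SV-HUC-1 and T24 against J82, in place of 5, 1 and 4. A member with 5 reads in 1 library and 0 in the other passes on that alone. The share over all circRNAs without the filter was not computed, so nothing is read from these counts.

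For the active zone list in T24 against SV-HUC-1, no filter gave 4 genes lower and a median of -0.30. A filter of 20 reads gave 2 higher, 1 lower and a median of 0.031, and a 4-fold threshold 2 higher and 1 lower. In J82 against SV-HUC-1, no filter gave 4 higher and 8 lower, the 20-read filter 2 lower, a pseudocount of 0.1 CPM 1 higher and a 4-fold threshold 1 higher. In T24 against J82, no filter gave 8 higher and 4 lower, a pseudocount of 0.1 CPM 1 lower, and a 4-fold threshold 0 lower. Without RIMS1 and RIMS2, 2 were higher and the median was 0.38. The filters change how many genes are compared, and the cause of the other shifts was not tested. Shares over all host genes were not computed under these settings, so the counts have no background beside them. No paired analysis was possible because each line has 1 library. Counts of at most 14 reads in any library limit every RIMS1 and RIMS2 circRNA except hsa_circ_0132246, which has 5 reads in J82.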

Other observations

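The listed circRNAs of other genes around each locus were looked up by position, after the values above were seen. Upstream of the RIMS1 circles, an uncatalogued circle of LINC00472 lay 185351 bases away on the other strand and had 0 T24, 8 J82 and 11 SV-HUC-1 reads. Downstream, the next circles on the same strand are those that circBank names for KCNQ5, at 314121 and 547061 bases. KCNQ5 is a potassium channel gene and is among the neuronal markers above, whose summed reads leave these rows out because they have no host gene. Its circles had 0 reads in T24 and in J82, against 29 and 25 in SV-HUC-1. Beyond them, hsa_circ_0004973 of MTO1, a mitochondrial tRNA modification gene, had 36 T24, 32 J82 and 27 SV-HUC-1 reads.

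At the RIMS2 locus, hsa_circ_0005499 of SLC25A32, a mitochondrial folate carrier, lay 244420 bases upstream and had 5 T24, 6 J82 and 7 SV-HUC-1 reads. The next annotated host gene downstream was ZFPM2, a cofactor of GATA factors, which is also 1 of the 5 genes most like RIMS1. Its circles lay 1648337 and 1652606 bases away. The first, hsa_circ_0135442, had 5 T24 reads and none from J82 or SV-HUC-1, and hsa_circ_0003380 had 53 T24, 0 J82 and 2 SV-HUC-1 reads.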
